A study of Mus musculus with 2 samples.

Results

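Semaphorins and the plexins and neuropilins that receive them were measured in the left cerebral cortex of 10-day-old mice. The members were the genes whose symbol begins with Sema3 to Sema7, begins with Plxna to Plxnd, or is Nrp1 or Nrp2, and which have a transcript annotated as protein-coding. This gave 31 genes, 20 semaphorins, 9 plexins and 2 neuropilins, of 55536 genes in the tables. The antisense genes Plxna4os1, Plxna4os2 and Plxna4os3 carry a matching symbol but no protein-coding transcript, held at most 5 reads in a library, and were left out. Both samples came from female B6CASTF1/J mice, the first-generation hybrid of the C57BL/6J and CAST/EiJ strains. Each library was made from 300 ng of total RNA after reduction of ribosomal RNA, with spike-in RNA added. The samples form 1 group with n = 2 and received no treatment, so the levels are described across genes and between the 2 libraries, and no difference was tested. An exact two-sided test on 2 animals cannot give a p below 0.5.

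Semaphorins are guidance proteins that repel or attract growing axons and also act on dendrites, synapses, blood vessels and glia. Class 3 semaphorins are secreted, those of classes 4 to 6 cross the membrane, and Sema7a is held on the membrane by a lipid anchor. Plexins are the receptors that carry the signal into the cell, where their inner part switches off small GTPases. Most class 3 semaphorins do not bind a plexin alone and need a neuropilin beside it. In the cortex this family is known for the guidance of callosal and corticofugal axons, for the orientation of apical dendrites and for the number of dendritic spines.

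Genes held 29867099 rounded reads in replicate 1 and 31031311 in replicate 2, of which the 31 members took 0.288% and 0.293%. All 8 markers of cortical glutamatergic neurons were at 1 TPM (a level corrected for transcript length and scaled so that each library has the same total) or more in both libraries, led by Slc17a7 at 522 and 501 TPM. Markers of myelinating oligodendrocytes differed between the libraries, with a summed level of 209 TPM in replicate 1 and 413 TPM in replicate 2. All 9 of them had more scaled reads in replicate 2. Markers of striatum summed to 119 and 93.6 TPM in the same order, and 7 of 8 had fewer scaled reads in replicate 2. Every marker of GABAergic interneurons, astrocytes, oligodendrocyte precursors, microglia, endothelium, pericytes and meninges reached 1 TPM, against 2 of 8 for choroid plexus. A donor label is shared by the samples, although they are labelled as separate females. The spread between them is therefore given as the spread between samples.

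Neuropilin-2 was the member that differed most between the libraries, and its coding transcripts differ by optional inserts and by their last coding exon, so these sequences are shown first. The Nrp2 gene (ENSMUSG00000025969.15) lies on the plus strand at chr1:62703285-62818695 of mm10. Its 6 complete coding transcripts differ by a 15-base extension of an exon at chr1:62786302-62786316, a 51-base exon at chr1:62812534-62812584, and 2 alternative last coding exons. The first pair of lines gives these optional stretches in capitals, with 18 coding bases on each side as they stand in the spliced transcript. The next lines give the last 45 coding bases before the stop codon for the 2 kinds of Nrp2 end and for Nrp1, with the last codons in capitals, and all are read 5′ to 3′.
Nrp2-203, 15-base extension: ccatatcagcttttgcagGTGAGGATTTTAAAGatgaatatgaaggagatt
Nrp2-202, 51-base exon: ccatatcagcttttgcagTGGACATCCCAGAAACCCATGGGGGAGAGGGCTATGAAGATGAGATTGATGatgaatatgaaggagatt
Nrp2-204, distal end (a-type): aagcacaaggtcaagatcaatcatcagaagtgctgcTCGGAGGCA
Nrp2-205, proximal end (b-type): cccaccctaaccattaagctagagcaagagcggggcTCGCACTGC
Nrp1-201, coding end: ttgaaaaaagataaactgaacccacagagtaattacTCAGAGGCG

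The distal end of Nrp2 is at chr1:62815590-62815634, the proximal end at chr1:62795942-62795986 and the end of Nrp1 at chr8:128502767-128502811, all on the plus strand. As background, the a-type end of neuropilin-2 and the end of neuropilin-1 bind the adaptor protein GIPC1, and the b-type end has a different inner part.

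Detection was complete at the level used here. All 31 members reached 1 TPM in each of the libraries, beside 59.1% of 22015 protein-coding genes outside the mitochondrial genome. A level of 5 TPM was reached in both by 27 members, beside 46.5% of those genes, and one of 10 TPM by 24, beside 37.3%. The members spanned a wide range, with mean levels between 1.57 TPM for Sema3b and 79.2 TPM for Plxna1. Their median was 22.2 TPM, beside a median of 16.6 TPM over the 13003 protein-coding genes detected in both libraries. The members were not concentrated at the top of the range: 18 of 31 lay above the median of detected genes, and 8 of 31 (25.8%) lay above 37.7 TPM, the 75th percentile of detected genes. Of the 30 pairs of neighbours in the order of levels, 12 were separated in the sense that both libraries of the higher gene exceeded both of the lower.

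**Figure D1:**
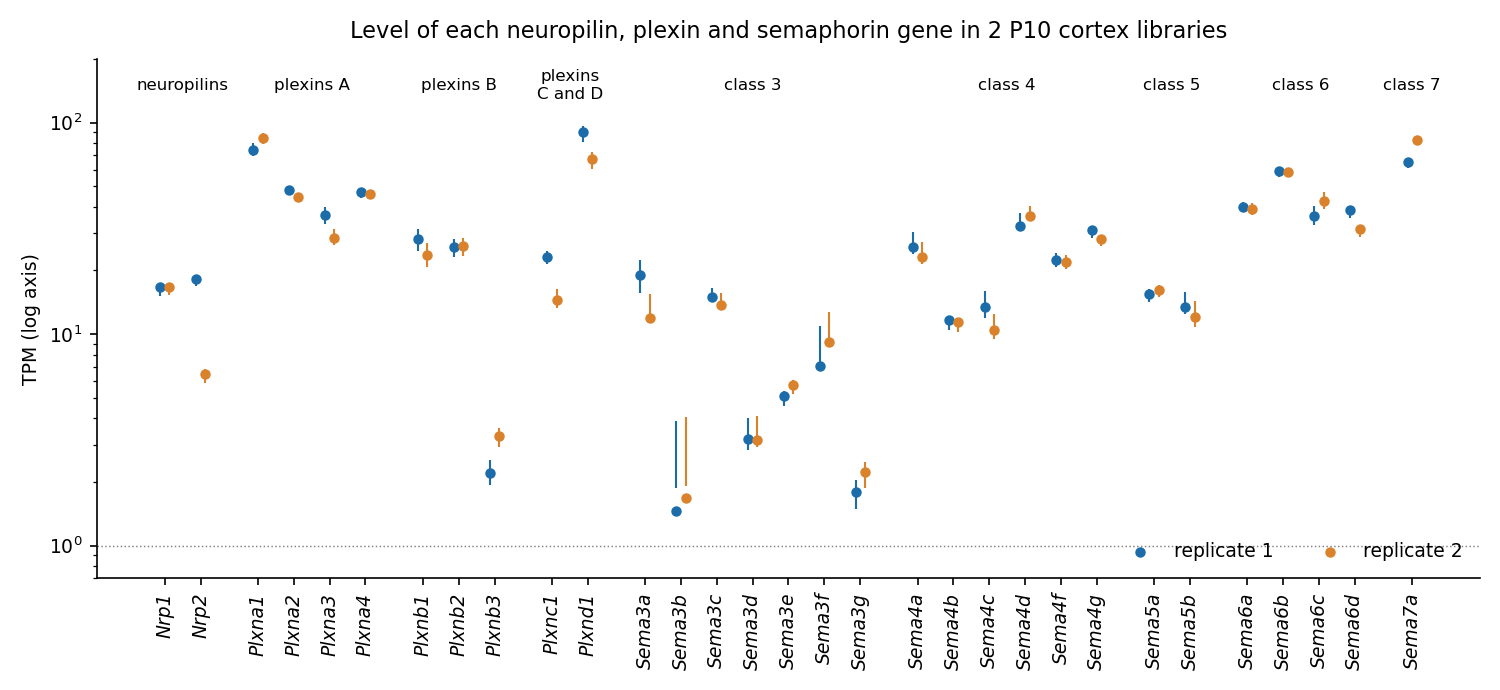
TPM (log axis) of the 31 genes in replicate 1 (blue) and replicate 2 (orange), with vertical lines for the credible intervals that the authors deposited. The class A plexins, Plxnd1, class 6 semaphorins and Sema7a lie in the upper part, and the class 3 semaphorins and Plxnb3 in the lower part. Nrp2 has the widest gap between its points.

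Neuropilins, the co-receptors of secreted semaphorins, were at moderate levels. Nrp1, the co-receptor of Sema3a that also binds vascular growth factor, was at 16.6 TPM in replicate 1 and 16.7 TPM in replicate 2, from 1062 and 1171 reads. The 2 libraries were close for this gene. Nrp2, the co-receptor of Sema3f, was at 18.3 TPM in replicate 1 and 6.45 TPM in replicate 2, from 2071 and 828 reads. Its deposited credible intervals, 17.0 to 18.7 TPM and 5.89 to 6.83 TPM, lay apart. After scaling by TMM (trimmed mean of M-values, which sets the libraries on a common depth) the Nrp2 reads were lower in replicate 2 by a log2 ratio of -1.34. The alignment-free tables gave 25.6 and 9.79 TPM for the same gene. In bulk tissue fewer cells of a type and less RNA per cell cannot be told apart.

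The difference in Nrp2 was present at both kinds of coding end. Transcripts with the distal end summed to 10.7 and 4.43 TPM in replicates 1 and 2, and those with the proximal end to 5.70 and 1.66 TPM. The distal end made up 65.3% and 72.7% of the complete coding transcripts, a mean of 69.0% ± 5.27 (SD, n = 2), and the alignment-free tables gave 65.9% and 73.4%. The a-type end thus held the larger part in both libraries and both quantifications. Transcripts with the 51-base exon held 19.7% and 20.9% of complete coding TPM. Transcripts with the 15-base extension held 17.8% in replicate 1 and were listed at 0 in replicate 2. Of the named transcripts, Nrp2-204 (909 codons) led in replicate 2 with 49.0% of gene TPM, and Nrp2-205 (901 codons) led in replicate 1 with 28.9%, against 27.0% for Nrp2-204 there. In the alignment-free tables Nrp2-204 led in both libraries, with 31.5% and 40.8%. Nrp1 had a single complete coding transcript, Nrp1-201 with 923 codons, which held 84.3% and 87.7% of its TPM.

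Class A plexins, which pair with neuropilins for secreted semaphorins and bind class 6 semaphorins directly, were among the highest members, with a median of 46.4 ± 1.61 TPM (SD, n = 2). Plxna1 was at 74.1 and 84.4 TPM in replicates 1 and 2, the highest mean level of all 31. Plxnd1 exceeded it in replicate 1, at 90.4 TPM, so which of them is highest was not resolved. Plxna2 was at 48.3 and 44.6 TPM, and Plxna4 at 46.8 and 45.9 TPM. The order of these 2 genes was not resolved, since their libraries overlapped. Plxna3, on chromosome X, was at 36.6 and 28.6 TPM. Each of the 3 was below Plxna1 in both libraries, by log2 ratios of -0.77 ± 0.21 for Plxna2, -0.77 ± 0.15 for Plxna4 and -1.29 ± 0.38 for Plxna3 (SD, n = 2), all larger than 2 SD.

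Plxna3 is a gene whose level depended on short annotated transcripts. Transcripts under 1000 bases held 51.2% and 42.9% of its TPM but 9.80% and 7.30% of its reads in replicates 1 and 2, because TPM divides reads by length. Its full-length transcript Plxna3-201 (1872 codons) was at 17.0 and 15.8 TPM. Summed over transcripts of 1000 bases or more, Plxna3 was at 17.9 and 16.3 TPM, and its log2 ratio to Plxna1 was -2.13.

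Class B plexins, the receptors of class 4 semaphorins, split into a pair at moderate levels and a low member. Plxnb1, the receptor of Sema4d, was at 28.1 and 23.6 TPM in replicates 1 and 2, and Plxnb2, a receptor of Sema4c, at 25.8 and 26.03 TPM. Their log2 ratio of -0.01 ± 0.18 (SD, n = 2) changed sign between libraries. It was 0.64 in the alignment-free tables, where Plxnb2 was at 27.8 and 26.6 TPM and Plxnb1 at 43.3 and 41.8 TPM. Those tables exceeded the alignment-based ones by a median of 1.46-fold over the members. The rise was 1.65-fold for Plxnb1 and 1.05-fold for Plxnb2. Plxnb3, which in mice is known from oligodendrocytes, was at 2.20 TPM in replicate 1 and 3.28 TPM in replicate 2, from 241 and 393 reads. It was below Plxnb1 by a log2 ratio of -3.21 ± 0.57, or -2.43 without transcripts under 1000 bases. The Plxnb3 reads were higher in replicate 2, the library with the higher markers of myelinating oligodendrocytes, by 0.69 on the log2 scale. Those markers moved in the same direction with a median of 1.36, and 7 of the 9 had a mean of 100 scaled reads or more. Markers of oligodendrocyte precursors had a median of 0.23, with 6 of 7 higher in replicate 2. The part of either list in the Plxnb3 difference was not tested.

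The remaining plexins were Plxnc1 and Plxnd1. Plxnc1, the receptor of Sema7a, was at 23.1 TPM in replicate 1 and 14.5 TPM in replicate 2, from 2900 and 1911 reads, and its credible intervals did not overlap. Plxnd1, the receptor that Sema3e binds without a neuropilin, was at 90.4 and 67.3 TPM, but its reads were 7935 and 7627, a log2 ratio of -0.07 after scaling. The TPM gap of Plxnd1 moved with Plxnd1-204, an intron-retaining transcript of 442 bases that held 21.7 and 11.03 TPM from 139 and 77.5 reads. The alignment-free tables set that transcript at 1.36 and 0 TPM. Without transcripts under 1000 bases Plxnd1 was at 60.7 and 54.0 TPM, below Sema7a in both libraries.

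Secreted class 3 semaphorins were the lowest class, with a median of 5.41 ± 0.47 TPM (SD, n = 2). Sema3a, the founding repellent of cortical axons, was at 19.0 and 11.98 TPM in replicates 1 and 2, from 1551 and 1313 reads. Part of its TPM gap sat in Sema3a-205, at 3.66 and 0.25 TPM from 14.6 and 1.07 reads. Sema3c, which attracts cortical axons and binds both neuropilins, was at 14.9 and 13.8 TPM. The order of Sema3a and Sema3c was not resolved, since their ratio changed sign between libraries.

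The other class 3 genes were at lower levels. Sema3f, the ligand of Nrp2, was at 7.05 and 9.22 TPM, and Sema3e, the ligand of Plxnd1, at 5.07 and 5.74 TPM. Sema3d was at 3.18 and 3.17 TPM and Sema3g, known from vessels, at 1.80 and 2.23 TPM. Sema3b was the lowest member of the whole family, at 1.45 and 1.68 TPM from 80 reads in each library, and was the only member below a mean of 100 scaled reads. The deposited TPM of Sema3b lay below its own credible interval in both libraries. In at least 1 library the deposited TPM lay outside its own interval for 6 members in all, the others being Plxna2, Plxna4, Sema3f, Sema6b and Sema7a. The leading row of Sema3b, Sema3b-206, is annotated for nonsense-mediated decay and held 57.9% and 56.9% of gene TPM, while Sema3b-205, with the full 749 codons, held 31.7% and 9.58%.

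Class 4 semaphorins, membrane proteins that act on nerve cells, vessels and immune cells, had a median of 23.4 ± 1.13 TPM. Sema4d, the ligand of Plxnb1, was highest at 32.6 and 36.4 TPM in replicates 1 and 2. Sema4g was at 31.1 and 28.1 TPM, Sema4a at 25.96 and 23.2 TPM, and Sema4f at 22.4 and 22.0 TPM. For these 4 genes the libraries lay close together, and the deposited intervals of each overlapped. Without transcripts under 1000 bases Sema4a was at 15.6 and 13.9 TPM, below Sema4f at 21.9 and 20.9 TPM, so their order depended on short transcripts. Sema4c, the ligand of Plxnb2, was at 13.5 and 10.5 TPM and Sema4b at 11.7 and 11.4 TPM, the low end of the class. The coding transcripts of Sema4b with a complete reading frame shared 823 codons, and their split, 42.1% and 68.0% for Sema4b-204, therefore concerned sequence outside the coding part. The alignment-free tables gave 53.7% and 55.3% for Sema4b-204, so the gap between libraries depended on the quantification. Sema4d-204, an incomplete coding row of 1249 bases, held 39.7% and 40.1% of Sema4d TPM, ahead of the complete Sema4d-201 with 32.2% and 34.4%. The complete Sema4d-203 held a further 14.0% and 13.6%. In reads Sema4d-201 was ahead, with 863 and 1123 against 279 and 344 for the shorter Sema4d-204, because TPM divides reads by length.

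Class 5 semaphorins, which carry thrombospondin repeats, were below the class 4 median. Sema5a was at 15.5 and 16.2 TPM in replicates 1 and 2, and Sema5b at 13.5 and 11.99 TPM. Their log2 ratio of 0.32 ± 0.17 kept its sign but was smaller than 2 SD.

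Class 6 semaphorins, which signal through class A plexins and can themselves act as receptors, were the highest of the semaphorin classes that hold more than a single gene, at a median of 40.0 ± 1.15 TPM. Sema6b was at 58.9 and 58.8 TPM, the closest agreement between libraries of the class. Sema6a was at 39.9 and 38.95 TPM, Sema6c at 36.3 and 42.6 TPM, and Sema6d at 38.5 and 31.5 TPM. Both libraries of Sema6a exceeded both of Sema6d, whereas Sema6c overlapped with each of them, and the ratio of Sema6d to Sema6c changed sign between libraries. Without transcripts under 1000 bases Sema6c was at 20.1 and 24.9 TPM. Sema7a, known to promote axon growth through an integrin and to act through Plxnc1, was at 65.1 TPM in replicate 1 and 83.3 TPM in replicate 2, from 3897 and 5454 reads. Its reads were higher in replicate 2 by 0.47 on the log2 scale, less than 1.5-fold.

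Receptors as a group were higher than ligands. The median of the 11 plexins and neuropilins was 28.1 and 26.03 TPM in replicates 1 and 2, against 17.3 and 15.01 TPM for the 20 semaphorins, a log2 ratio of 0.75 ± 0.07 (SD, n = 2) and 1.68-fold. The ratio was 0.26 on the log2 scale when transcripts under 1000 bases were left out, an alternative chosen after the data were seen. The sum of the semaphorins was nevertheless larger than that of the plexins, at 457 and 463 TPM against 375 and 338 TPM. Membrane-bound semaphorins made up most of it: the 13 of them summed to 405 and 415 TPM, and the 7 secreted ones to 52.5 and 47.8 TPM. The median of the 13 was 31.05 and 28.12 TPM in replicates 1 and 2, above the receptor median in both. That of the 7 secreted ones was 5.07 and 5.74 TPM.

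Ratios between a ligand and a receptor it is known to bind, or between 2 members of a class, were formed for 20 pairs within each library. In 14 pairs the sign was the same in both libraries, and in 11 the mean exceeded 2 SD. The ligand and receptor pairs with the largest ratios were Sema3e over Plxnd1, at log2 ratios of -4.13 and -3.53, and Sema7a over Plxnc1, at 1.49 and 2.52. Sema6a was below Plxna4 by -0.23 in replicate 1 and -0.24 in replicate 2 and below Plxna2 by -0.28 and -0.20, the narrowest spreads of the set. Sema6d was below Plxna1, with a mean of -1.18 ± 0.34, and Sema4c below Plxnb2, with -1.12 ± 0.27. The Sema4c to Plxnb2 ratio shrank to -0.20 in the alignment-free tables and then no longer exceeded 2 SD.

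Several pairs turned with the library. Nrp1 over Nrp2 was -0.14 in replicate 1 and 1.35 in replicate 2 on the log2 scale. The deposited intervals of the 2 neuropilins overlapped in replicate 1, so their order there was not resolved, and lay apart in replicate 2. Sema3f over its co-receptor Nrp2 was -1.37 and 0.51. Sema3a over Nrp1 was 0.19 and -0.47. Each of these 3 pairs had an SD larger than its mean.

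**Figure D2:**
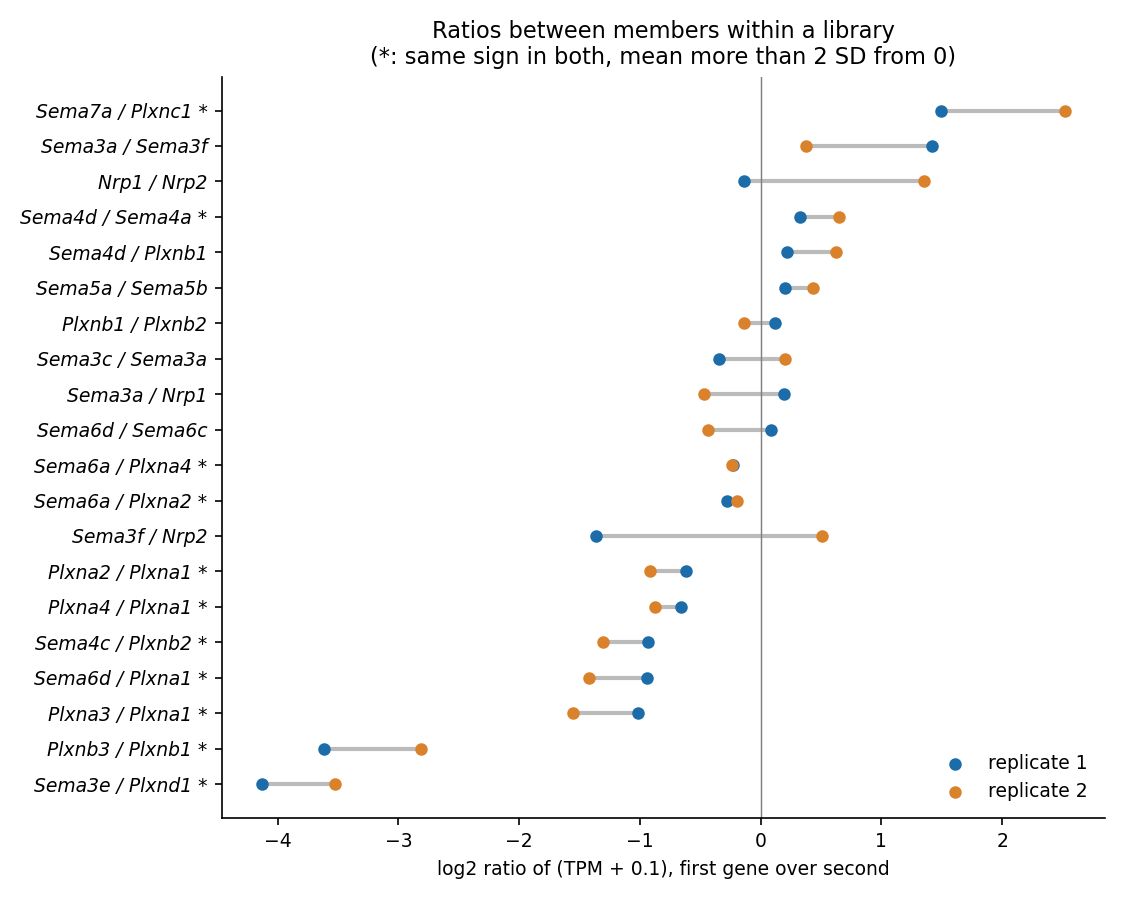
The log2 ratio of (TPM + 0.1), first gene over second, for 20 pairs of members in replicate 1 (blue) and replicate 2 (orange), joined by a grey line. Sema7a over Plxnc1 and Sema3e over Plxnd1 stand at the ends, and the lines of Nrp1 over Nrp2 and Sema3f over Nrp2 cross 0.

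Between the libraries, most members changed little. Of the 30 members with a mean of 100 scaled reads or more, 1 was 2-fold or more apart, namely Nrp2, beside 0.347% of 12682 genes in either direction and 0.166% lower in replicate 2. At 1.5-fold there were 3, Nrp2, Plxnc1 and Plxnb3, beside 1.71% of all genes. The median absolute log2 ratio was 0.13 for the members, against 0.09 for all genes at this depth. Reads were higher in replicate 2 for 22 of the 30 and lower for 8, while the median of all genes was 0.02 on the log2 scale. The share of all genes higher in replicate 2 was not counted, so the 22 of 30 cannot be set against it. The credible intervals of the libraries overlapped for 22 of the 31 members and lay apart for 9, beside 12.6% apart among the 13003 detected protein-coding genes.

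The 3 differences moved alongside marker lists in different directions. Nrp2 (log2 ratio -1.34) and Plxnc1 (-0.62) were lower in replicate 2, where 7 of 8 striatal markers, with a median of -0.29, were also lower. Of the thalamic markers 5 of 8 were lower, with a median of -0.22, and their levels summed to 89.4 TPM in replicate 1 and 71.8 TPM in replicate 2. For olfactory bulb, a list chosen after values were seen, 5 of 6 markers were lower in replicate 2, with a median of -0.49. Only 3 of these 6 were at 1 TPM or more in both libraries. Only 2 had a mean of 100 scaled reads or more, Meis2 at -0.28 and Cdhr1 at -0.60. For hippocampus, also not among the planned lists, 3 of 8 markers were lower and 5 of 8 higher, with a median of 0.03. Of those hippocampal markers, 4 of 8 were at 1 TPM or more in both libraries. Markers of GABAergic interneurons were lower for 4 of 8 and higher for 4 of 8, with a median of -0.02, and those of glutamatergic neurons were higher for 7 of 8, with a median of 0.16. No marker in the striatal list was 2-fold apart at 100 reads. The part of these tissues and cell types in the Nrp2 and Plxnc1 differences was not tested.

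**Figure D3:**
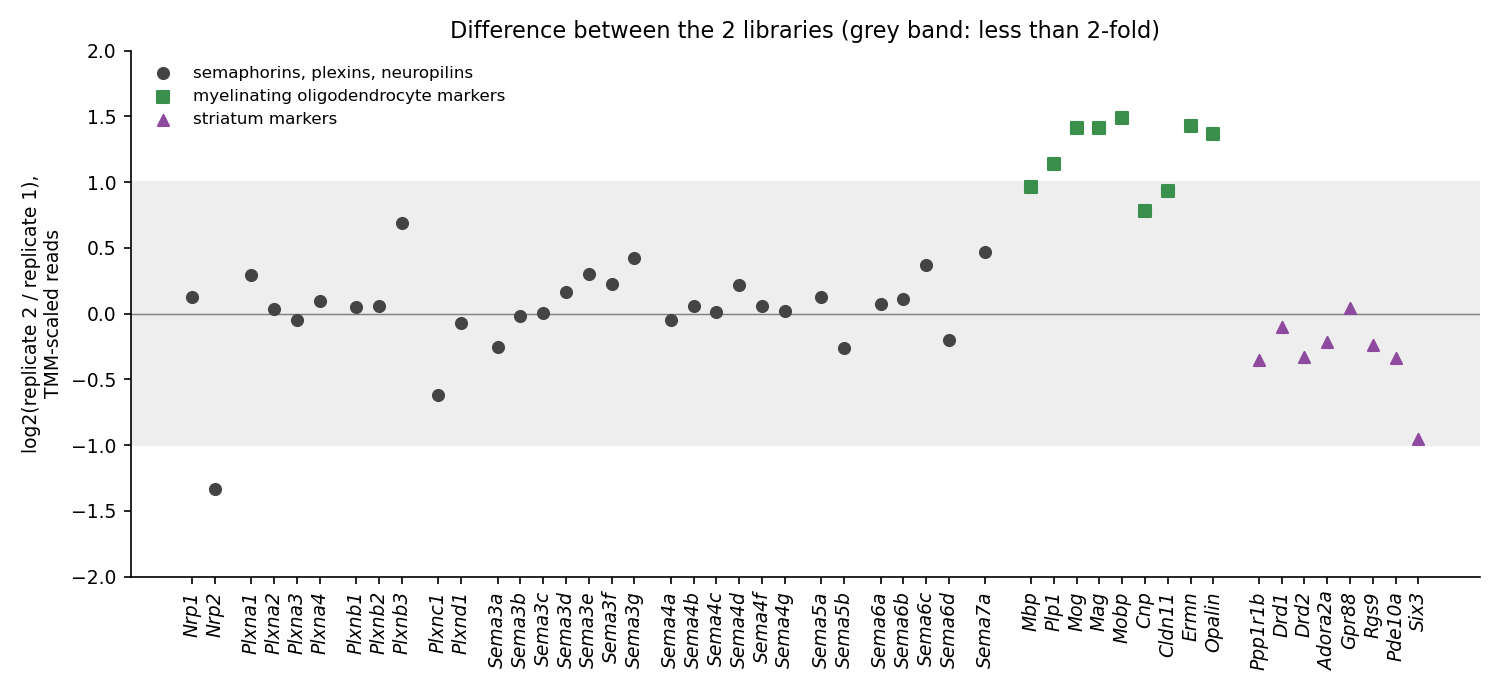
The log2 ratio of TMM-scaled reads, replicate 2 over replicate 1, for the 31 members (circles), 9 markers of myelinating oligodendrocytes (squares) and 8 markers of striatum (triangles), with the grey band covering less than 2-fold. Nrp2 is the only circle outside the band, all squares lie above 0, and 7 of 8 triangles lie below 0.

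The second quantification gave higher levels throughout. The alignment-free tables exceeded the alignment-based ones by a median of 1.46-fold over the members and 1.51-fold over 14123 protein-coding genes, and the gap turned to log2 medians of -0.14 and -0.08 once TPM was rescaled over protein-coding genes. No member was 2-fold apart between the quantifications, beside 12.1% of those genes. Before rescaling, the ratio of alignment-free to alignment-based TPM was highest for Sema4c, at 1.99-fold, and lowest for Plxnb2, at 1.05-fold. Plxnb2 thus rose less than the median of 1.46-fold over the members.

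Leading transcripts were compared for the 27 members that reached 5 TPM in each library and have at least 2 annotated transcripts. In 25 of them the same transcript led in both libraries, beside 91.0% of 9450 protein-coding genes, a share near the background. In 23 the same transcript led in both libraries and both quantifications, beside 69.3%. Nrp2 and Sema4b were the members whose leader changed between libraries. Genes with nearly all TPM in a single transcript stood at one end. Sema7a-201 held 100%, Sema3c-201 a mean of 99.0% and Plxna4-201 a mean of 97.0% of their gene's TPM, and the alignment-free means were 100%, 97.3% and 96.8%. Other high shares depended on the quantification: the alignment-based and alignment-free means were 95.2% and 79.7% for Plxna1-202, 93.9% and 63.4% for Sema6b-201, and 92.3% and 81.9% for Plxna2-201. Among divided genes, Sema6d-208 held 30.3% and 27.3%, and Sema4a-201 24.6% and 43.7%, in the same order. Sema4c-208 held 32.5% and 11.4%, and Sema4c-206 led instead in the alignment-free tables. Of the 27 leading shares, the alignment-free value was lower by more than 1 SD in 16 and higher by more than 1 SD in 5.

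Rows not annotated as protein-coding held a median of 11.9% of TPM over those 27 members and 12.2% over the 9450 genes. The share was highest for Plxna3 at 49.3% ± 6.26, Sema6c at 48.2% ± 1.71 and Sema3f at 44.9% ± 4.25 (SD, n = 2). It was 0 in Sema7a. In Sema6b it was 0 by annotation, since both of its 2 annotated transcripts are protein-coding.

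**Figure D4:**
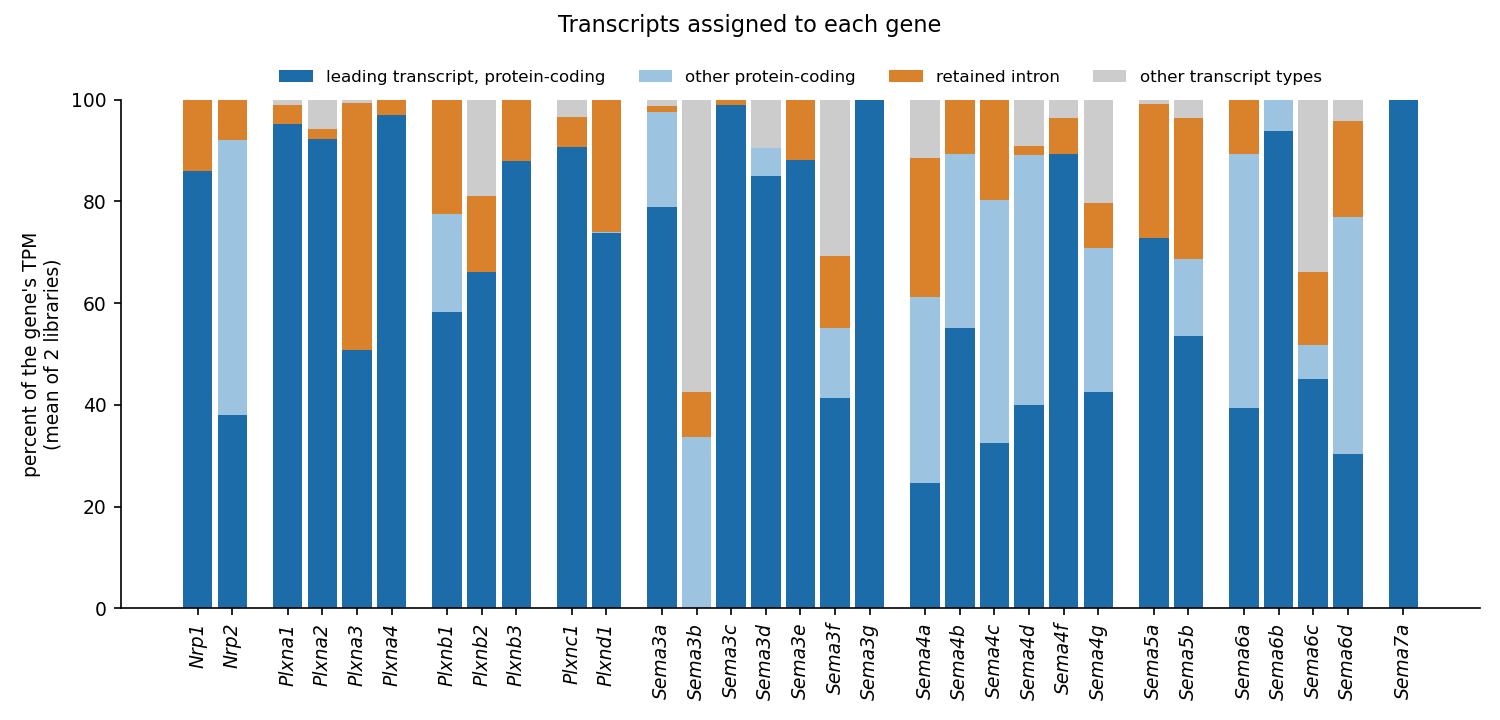
Percent of each gene's TPM (mean of 2 libraries) in the leading transcript where protein-coding (dark blue), other protein-coding transcripts (light blue), transcripts with a retained intron (orange) and other types (grey). Sema7a, Sema3c and Plxna4 are nearly all dark blue, and Plxna3 has the largest orange part.

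Optional coding stretches were present in other members too, and were listed after the transcript levels were seen. Sema6d (plus strand, chromosome 2) has complete coding transcripts of 998 to 1073 codons that differ by optional exons. The 57-base exon at chr2:124660705-124660761 was held by 44.3% and 43.8% of complete coding TPM in replicates 1 and 2. The 156-base segment at chr2:124662204-124662359 was held by 42.6% and 48.7%. Each stretch was thus absent from the larger part of Sema6d coding transcripts, and the alignment-free means were 40.3% and 43.2%. The Sema3f exon of 93 bases at chr9:107691356-107691448 (minus strand) was in 19.8% and 25.1%, by 34.6 and 52.3 reads of Sema3f-204. These exons are shown in capitals, with 18 flanking coding bases on each side.
Sema6d-206, 57-base exon: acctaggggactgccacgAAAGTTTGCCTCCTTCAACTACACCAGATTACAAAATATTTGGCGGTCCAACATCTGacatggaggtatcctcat
Sema3f-204, 93-base exon: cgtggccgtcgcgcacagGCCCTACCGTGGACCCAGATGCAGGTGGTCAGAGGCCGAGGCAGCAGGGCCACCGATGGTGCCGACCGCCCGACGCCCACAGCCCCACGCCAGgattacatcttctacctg

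Sema6a (minus strand, chromosome 18) had a 165-base exon at chr18:47270609-47270773 in 61.0% and 60.1% of complete coding TPM, so the forms with and without it were both present in each library. A 51-base exon of Sema6a was in 8.00% and 7.84%. Sema5b had an 87-base stretch at chr16:35660071-35660157 in 30.1% and 12.96%, so that its share was not settled by the 2 libraries.

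**Figure D5:**
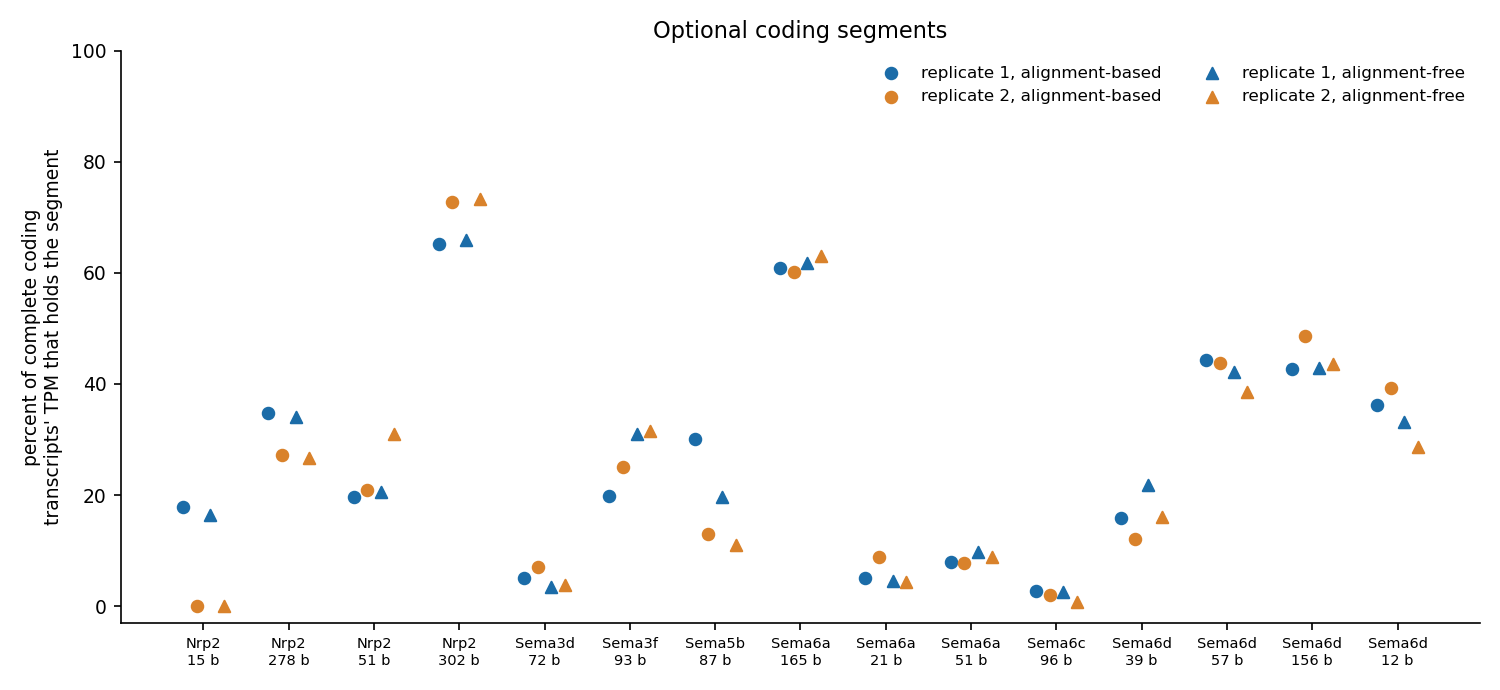
Percent of the TPM of complete coding transcripts that holds each optional coding segment, named by gene and length (b, bases) for segments with a mean share between 2% and 90%, for replicates 1 (blue) and 2 (orange) in the alignment-based (circles) and alignment-free tables (triangles). The Sema6a 165-base exon is near 60% in all 4 values, and the Nrp2 15-base extension is at 17.8% and 16.3% in replicate 1 and at or near 0 in replicate 2.

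Genes around the family were drawn from lists of its known partners. Of 29 genes that act inside the cell, all 29 were at 1 TPM or more in both libraries and none was 2-fold apart. The highest were Cfl1, the actin-severing cofilin, at 970 and 971 TPM, and Dpysl2 and Dpysl3, collapsin response mediators, at 485 and 450 TPM and at 472 and 413 TPM. The lowest was Fes, a tyrosine kinase, at 2.31 and 3.13 TPM. Of 14 other receptors and co-receptors 11 were at 1 TPM or more, led by the adhesion molecules Nrcam at 226 and 205 TPM, L1cam at 227 and 190 TPM and Chl1 at 172 and 142 TPM. The exceptions were Mst1r at 0.87 and 1.24 TPM, the Sema4d receptor of immune cells Cd72 at 0 and 0.11 TPM, and Timd2, a Sema4a receptor of immune cells, listed at 0. All 7 proteases that cut semaphorins or neuropilins were at 1 TPM or more, from Pcsk6 at 3.79 and 4.02 TPM to Adam10 at 42.6 and 41.2 TPM, with Furin at 22.1 and 19.97 TPM.

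Members lie on 17 chromosomes, with a few close together. Sema3d, Sema3a and Sema3e follow each other on chromosome 5, with gaps of 536 kb and 423 kb, and were at mean levels of 3.18, 15.5 and 5.41 TPM. Sema3b and Sema3f are 72.3 kb apart on chromosome 9, at means of 1.57 and 8.14 TPM. Plxnb3 and Plxna3 are 557 kb apart on chromosome X, at means of 2.74 and 32.6 TPM. Neighbours on a chromosome thus differed in level by several-fold.

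Promoter windows of RefSeq (GRCm38.p6, 250 bases before to 50 after a start) were listed for 26 members, and for 18 the start in a window lay within 100 bases of the start of the leading transcript. Of these 18, 14 (77.8%) held 10 or more CG pairs (letters C then G, which read the same on both strands), beside 43.5% of 32851 windows. The 18 genes were all detected here, whereas the windows of comparison cover every listed gene.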

How the data were processed

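Total RNA of 2 cortex samples was measured, and each sample had 3 tables. Expected counts and TPM per gene and transcript were estimated by the authors after alignment to mm10 with GENCODE M21, per the deposited README files; their credible intervals come with no stated level. In a further table the estimated counts and TPM were made by the authors without alignment, per the deposited README files, and were summed per gene here. Tool names, versions and any use of strand in counting: not given in the sources used here. Reads of CAST/EiJ alleles can map less well to mm10, and no allele was separated.

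Members, lists, pairs and tests were chosen with earlier results of these data known. All 31 members are described; of partner and marker lists, the highest, the lowest and those below 1 TPM or 2-fold apart are named. Spike-ins (96 rows) and rows named by a number only (26248 rows) were left out. Expected counts were rounded and scaled by TMM in edgeR 4.0.16, with DESeq2 1.42.0 size factors as an alternative, and ratios between libraries used 0.5 reads as a prior count. Ratios between genes used log2(TPM + 0.1), and were called larger than the spread where the signs in the libraries matched and the mean was beyond 2 SD. The ratio calculation was tested on simulated data. With 95% confidence a count of 0 allows up to 3 reads (counting error only), equal to 0.16 TPM (replicate 1) or 0.147 TPM (replicate 2) at 1 kb of length. Stretches of 31 bases were compared between transcripts: members shared at most 21 with other members, and other genes on the same strand held at most 2.31% of a member's stretches (Plxna2). On the opposite strand the highest shares were 8.57% for Plxna1 and 6.45% for Sema4c. Sequences came from GENCODE M21 transcripts. Python 3.11.15 and R 4.3.3 were used.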

Additional observations from a re-analysis of the deposited data

How the results depend on the processing

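No paired analysis was possible because both samples form 1 group. The alternatives of leaving out transcripts under 1000 bases were chosen after the data were seen. All 31 members stayed detected in the alignment-free tables, in either library alone, and at 0.5 TPM. Nrp2 was the single member 2-fold apart under DESeq2 size factors, TPM as deposited, other read minimums and alignment-free counts; the count was 3 at 1.5-fold. The receptor to ligand ratio kept its sign and exceeded 2 SD under each alternative that kept both libraries, with log2 values of 0.26 to 0.83. Rescaling TPM over protein-coding genes raised all 9 class medians: class 3 to 10.9, class 4 to 47.1, class 5 to 28.8, class 6 to 80.6, class 7 to 149.9, plexins A to 93.5, plexins B to 49.7, plexins C and D to 98.0 and neuropilins to 29.1 TPM. The alignment-free tables gave 7.99, 35.5, 20.4, 61.3 and 108 TPM for classes 3 to 7, 67.8 for plexins A, 27.2 for plexins B and 21.1 for neuropilins. Without short transcripts class 4 was at 18.1, class 5 at 13.1, class 6 at 33.1, plexins B at 14.9 and plexins C and D at 37.2 TPM. The rise under rescaling follows from its construction; the cause of the other shifts was not tested.

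Among the pairs, log2 ratios turned sign with the library for Nrp1 over Nrp2 (-0.14 to 1.35), Plxnb1 over Plxnb2 (-0.14 to 0.12), Sema3c over Sema3a (-0.34 to 0.20), Sema3a over Nrp1 (-0.47 to 0.19), Sema3f over Nrp2 (-1.37 to 0.51) and Sema6d over Sema6c (-0.43 to 0.084). In the alignment-free tables Plxnb1 over Plxnb2 turned to 0.64, Sema4d over Plxnb1 passed 2 SD at 0.36, and Sema4c over Plxnb2 no longer did at -0.20. Without short transcripts Sema3c over Sema3a turned to 0.10 and Sema6d over Sema6c to 0.34, and 4 ratios passed 2 SD, namely Plxnb1 over Plxnb2 at -0.20, Sema3a over Sema3f at 1.02, Sema4d over Plxnb1 at 1.04 and Sema5a over Sema5b at 0.63. A pseudocount of 1 TPM changed no call. Sema3b had 80 reads per library, which limits what its transcripts can show. Leading transcript shares moved by more than 1 SD in the alignment-free tables for most members, with 16 lower and 5 higher of 27.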

Other observations

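Nrp2 was among 11 of 12682 genes (0.0867%) whose scaled reads were as low or lower in replicate 2 than its own log2 ratio of -1.34. Those with names beyond a gene model, chosen after values were seen, were Ndst4 at 5.07 and 0.73 TPM in replicates 1 and 2, Fign at 2.95 and 0.79 TPM, Dsc3 at 2.59 and 0.74 TPM, Hpcal1 at 27.0 and 9.85 TPM and Dchs2 at 2.08 and 0.75 TPM. Zc3h11a was also among them, but its symbol is shared by another gene entry, so that reads can be split between the entries.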
